A study of Mus musculus with 8 samples.

Results

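Mechanosensitive channels other than the Piezo proteins were followed as 8 genes, *Tmem63a*, *Tmem63b*, *Tmem63c*, *Trpv4*, *Trpm7*, *Kcnk2*, *Kcnk10* and *Lrrc8a*, of the 33696 genes counted in nuclei of the mouse optic nerve (ON). The genes were chosen by name, as channels known to respond to membrane stretch, cell swelling or shear, and all 8 had counts. The study asked what the mechanosensitive channel Piezo2 does in oligodendrocytes (OLs), the myelinating cells of the ON. Single-nucleus RNA sequencing gave 4 libraries of Piezo2f/f control mice without cre (replicates 1 to 4) and 4 libraries labelled Olig2-cre;Piezo2f/f (cKO, replicates 10 to 13). Both groups were female, 120 days old and carried floxed *Piezo2*, and each library pooled 6 ONs of 3 mice. In the cKO, cre is driven from the *Olig2* locus in the OL lineage, so these mice are also heterozygous for *Olig2*.

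Mechanosensitive channels open when the membrane is stretched or the cell swells, and so turn force into ion flow. The TMEM63 (OSCA) family are stretch- and osmolarity-gated cation channels, TRPV4 and TRPM7 are calcium-permeable TRP channels, TREK-1 (*Kcnk2*) and TREK-2 (*Kcnk10*) are potassium channels that hyperpolarise the cell under stretch, and LRRC8A is the obligate subunit of the volume-regulated anion channel (VRAC). In white matter, TMEM63A is known for its link to a transient form of infantile hypomyelination, and astrocytes are known for swelling-activated VRAC currents.

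A library held 39628926 to 48784051 UMIs (unique molecular identifiers, counted transcripts) in the controls and 43625290 to 56541132 in the cKO, with 3426 to 5462 and 3857 to 6222 nuclei after filtering. Values are counts summed per library and cell type and scaled to a fixed total as CPM, which makes no correction for gene length, so levels are compared between cell types and not between genes. Nuclei were assigned by marker genes to 10 cell types, and the markers were highest in their own type for every list but those of committed OPCs (5 of 6) and fibroblasts (8 of 10). As the same lists named the clusters, this describes the types and is no independent check of them. The ON holds axons and no resident neuronal cell bodies as a rule, and 132 of the 235 control neuron nuclei came from replicate 3, which also held pituitary transcripts. Calls of single members in neurons are therefore also given without that library, while counts, medians and values of other channels in neurons include it. Any pair of libraries shared 1 to 11 barcodes, at most 0.303% of the smaller set. *Piezo2* in OLs was 393 to 503 CPM in the controls and 521 to 571 CPM in the cKO, a log2 difference of 0.25 ± 0.11 (SE, adjusted p = 0.542). The counts cover the whole gene from a 3' kit and not the floxed exons alone, so this does not check the deletion, and the second group is named by its label.

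Across cell types of the control libraries, *Tmem63a* was highest in OLs, *Kcnk2* in fibroblasts, *Kcnk10* and *Tmem63b* in OPCs, and *Tmem63c* in neurons and, lower, in OPCs. *Lrrc8a* was raised in astrocytes and endothelial cells, while *Trpm7* was found in every type and was not called in any tested type. Its control means ran from 134 CPM in mural cells (9 UMIs in 2 libraries) to 313 CPM in T cells (58 UMIs in 4 libraries), both types with few counts. *Trpv4* was low throughout and had its highest mean in myeloid cells. Each type was compared with the mean of the other types in 8 types that had 3 or more usable control libraries (32 sums, 12395 genes, edgeR quasi-likelihood test). Calls required a Benjamini-Hochberg adjusted p below 0.05 and a log2 difference beyond 0.5 in size. Of the members 7 were tested, and *Trpv4* fell under the filter on low counts.

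In OPCs, 4 of the 7 tested members were called higher and 0 lower, where 17.7% and 6.55% of all genes were called. In neurons, 4 were higher and 1 lower, where 21.9% and 14.8% of all genes were called, and without replicate 3 the neuron counts were 3 and 0 (18.9% and 10.8%). In OLs, 1 was higher and 2 were lower, against 22.9% and 18.6% of all genes. That split of all genes in OLs depended on the scaling, with 2836 higher and 2305 lower under TMM, 1816 and 3009 under RLE size factors and 1802 and 4267 with DESeq2. In astrocytes 1 was higher and 2 were lower (25.7% and 14.7% of all genes), and in fibroblasts 1 was higher and 1 lower (21.9% and 13.5%). Endothelial cells had 1 higher and 0 lower (14.0% and 3.76%), myeloid cells 0 higher and 3 lower (18.3% and 15.2%), and T cells 0 higher and 1 lower (3.99% and 7.13%). The T cell split of all genes turned as well, from 494 higher and 884 lower under TMM to 619 and 350 under RLE size factors and 844 and 293 with DESeq2. With 7 genes in each type these shares are a description of the members. The median log2 difference of the members was 1.21 in OPCs and 0.68 in neurons, beside 0.02 and 0.01 over all genes. It was 0.16 in OLs, -0.16 in astrocytes, -0.34 in fibroblasts, -0.09 in endothelial cells, -0.92 in myeloid cells and -0.49 in T cells. The median of all genes in these types lay between -0.02 and 0.10, except in T cells, where it was -0.46. RLE size factors moved that median to -0.17 in OLs and to -0.18 in T cells, and DESeq2 to -0.19 and -0.11.

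**Figure D1:**
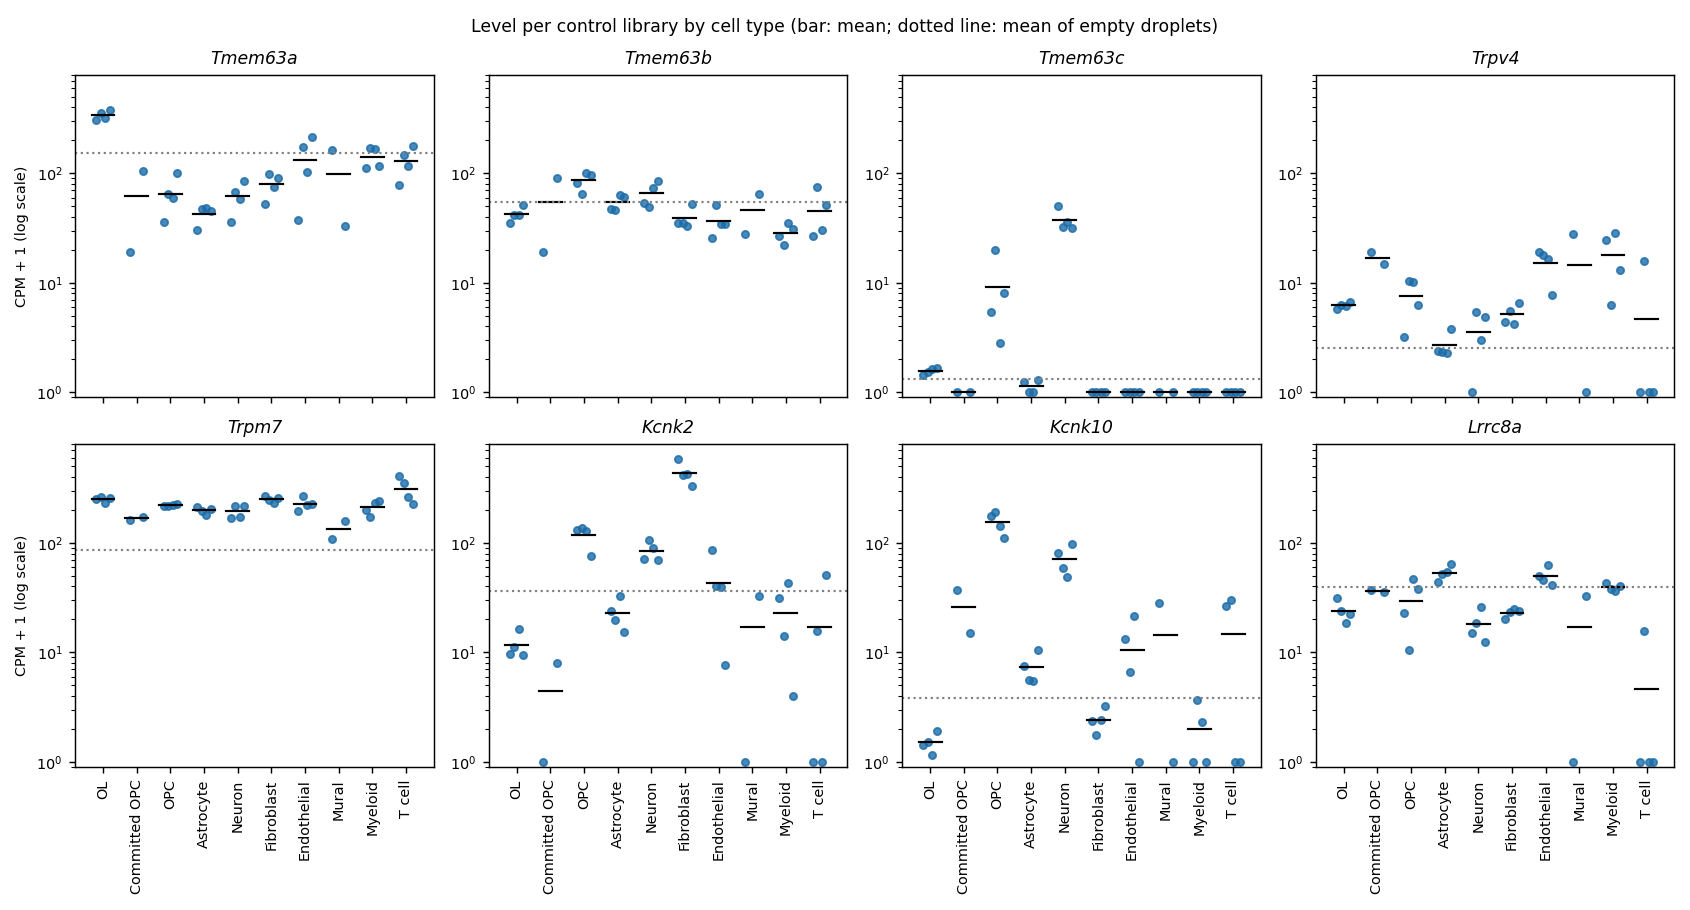
Level of each gene in the control libraries, as CPM + 1 on a log axis, by cell type; points are libraries, bars are means and the dotted line is the mean of the empty droplets. *Tmem63a* in OLs (303 to 381 CPM), *Kcnk2* in fibroblasts (330.5 to 582 CPM) and *Kcnk10* in OPCs (109.8 to 189 CPM) lie above every library of every other type.

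*Tmem63a* (chromosome 1, 180769879 to 180804358, plus strand, GRCm39) encodes a stretch-gated cation channel. In OLs it was at 303, 352, 316 and 381 CPM in control replicates 1 to 4, with a mean of 338 ± 35.1 CPM (SD, n = 4) from 7905 UMIs. All 4 OL values lay above the highest value of any other type, which was 214 CPM in endothelial cells. The difference of OLs from the other types was 2.32 ± 0.15 on the log2 scale (SE, adjusted p = 2.51e-16), and 47.8% to 65.8% of OL nuclei had a *Tmem63a* UMI. Astrocytes were lowest, at 41.9 ± 8.44 CPM (SD, n = 4), called lower with a log2 difference of -1.36 ± 0.20 (SE, adjusted p = 3.02e-07), with a UMI in 8.48% to 14.7% of nuclei. Neurons were called lower too (-0.75 ± 0.25, SE, adjusted p = 0.0157), but without replicate 3 that call was lost at -0.74 (adjusted p = 0.103), as it was without replicate 2 (-0.68, adjusted p = 0.0888). Myeloid cells and OPCs were not called, yet blocking on the library made both calls, myeloid cells higher at 0.50 (adjusted p = 0.00587) and OPCs lower at -0.52 (adjusted p = 0.0253). Myeloid cells were also called with the ambient profile subtracted (0.76, adjusted p = 0.0204), and both types without replicate 4 (0.72 and -0.74). From myeloid cells downward (140 ± 31.4 CPM), the ranges of neighbouring types overlapped all the way to astrocytes.

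Empty droplets held 152 ± 15.7 CPM of *Tmem63a* (SD, n = 4), more than the mean of any type but OLs. *Mog*, a myelin gene of OLs, was at 965 CPM in OLs and at 86.9 CPM in astrocytes, 144 CPM in fibroblasts and 186 CPM in OPCs. The ratio of *Tmem63a* to *Mog* was 0.350 in OLs, and it was 0.25 in T cells, 0.301 in neurons, 0.343 in OPCs, 0.446 in endothelial cells, 0.482 in astrocytes, 0.541 in fibroblasts and 0.581 in myeloid cells. In all 8 types with 4 control libraries, replicate 1 was lowest for both genes. The part of free OL RNA in these levels was not tested beyond these ratios and a fit with the ambient profile subtracted, in which the OL and astrocyte calls were kept. Outside the OL lineage that fit took the ambient share from OL markers, and empty droplets held less *Tmem63a* than OLs. The subtraction therefore tends to widen the OL difference, and the kept OL call does not measure free OL RNA.

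Over the 16 OL clusters the control means of *Tmem63a* ran from 265 ± 15.2 CPM in cluster 11, led by *Kirrel3* and *Kit*, to 411 ± 75.8 CPM in cluster 0, led by *Cntn3* and *Grik1*. The libraries of cluster 11 (251 to 286 CPM) lay below those of cluster 0 (320.4 to 498 CPM).

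*Tmem63b* (chromosome 17, 45971085 to 45997839, minus strand), another channel of that family, had a flatter profile. In OPCs, the cells that give rise to OLs, it was at 81.0, 63.1, 101 and 95.6 CPM, a mean of 85.1 ± 16.9 CPM (SD, n = 4), and in neurons at 64.7 ± 17.1 CPM, with overlapping ranges. OPCs were called higher at 1.21 ± 0.17 (log2, SE, adjusted p = 2.24e-07) and neurons at 0.68 ± 0.19 (SE, adjusted p = 0.00383). The neuron call was lost without replicate 3 (0.57, adjusted p = 0.105). OLs were at 41.4 ± 6.91 CPM and not called, and the sign of that difference depended on the scaling (0.10 with TMM, -0.18 with RLE size factors), which moved the median of all genes from 0.10 to -0.17. Myeloid cells were lowest at 27.7 ± 5.55 CPM and called lower, at -0.92 ± 0.22 (SE, adjusted p = 0.000854). Ranges of all neighbouring types in the order overlapped, and empty droplets held 53.7 CPM.

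*Tmem63c* (chromosome 12, 87068114 to 87138600, plus strand), the third member of the family, was at 48.9, 31.0, 35.0 and 30.8 CPM in neurons (64 UMIs) and at 4.38, 18.9, 1.83 and 7.08 CPM in OPCs (13 UMIs). All neuron libraries lay above all OPC libraries. Neurons and OPCs were called higher, with fitted log2 differences of 7.20 ± 0.50 (SE, adjusted p = 1.35e-12) and 4.60 ± 0.79 (SE, adjusted p = 3.39e-05), and the neuron value was 7.15 without replicate 3. These fitted values depend on the prior count, since several types had no UMI. Fibroblasts had 0 UMIs of 7472195, which allows up to 0.401 CPM over the group, and the neuron mean of 36.4 CPM was 90.7-fold that floor. It was 23.1-fold and 10.7-fold the floors of myeloid and endothelial cells, with 0 UMIs each. The spread of the neuron libraries does not enter these folds, so they are not lower bounds. OLs held 13 UMIs (0.429 to 0.675 CPM) and empty droplets 0.306 CPM.

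*Trpm7* (chromosome 2, 126633480 to 126718182, minus strand) encodes a channel fused to a kinase that carries magnesium and calcium. Its control means lay between 193 ± 26.8 CPM in neurons and 313 ± 84.2 CPM in T cells among the 8 types tested, and neighbouring ranges overlapped. OLs were at 253, 263, 233 and 258 CPM, with a UMI in 42.6% to 53.3% of nuclei, and empty droplets held 84.6 CPM. None of the 8 differences was called, with values from -0.25 in myeloid cells to 0.46 ± 0.10 (SE) in OLs, whose adjusted p was 0.000258 with the size under the threshold. That OL difference passed 0.5 without the filter on low counts (0.62), after thinning to 1000 UMIs (0.53) and in coarser clusters (0.50), and was 0.19 with RLE size factors (adjusted p = 0.147) and with DESeq2 (adjusted p = 0.013). In T cells, where the scaling shifts all genes, the sign of the difference changed between TMM (-0.04) and RLE size factors (0.23), and so lay above the median of all genes under both.

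*Trpv4* (chromosome 5, 114760209 to 114796914, minus strand), which is opened by swelling, warmth and lipid ligands, was sparse. In myeloid cells it was at 23.4, 5.26, 27.3 and 12.1 CPM (37 UMIs), and in endothelial cells at 18.3, 16.8, 15.3 and 6.70 CPM (13 UMIs). The ranges of both types overlapped. OLs were at 5.19 ± 0.376 CPM (122 UMIs), fibroblasts at 4.13 ± 1.09 CPM and astrocytes at 1.69 ± 0.733 CPM (SD, n = 4), the last close to the 1.53 CPM of empty droplets. Between 0.407% and 0.887% of astrocyte nuclei had a *Trpv4* UMI. In a fit without the filter on low counts, myeloid cells were higher at 1.86 ± 0.40 (log2, SE, adjusted p = 2.82e-05) and astrocytes lower at -1.69 ± 0.53 (SE, adjusted p = 0.00595).

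The myeloid level of *Trpv4* differed between both clusters of that type. Cluster 26, led by *F13a1*, *Mrc1* and *Lyz2*, which are known from macrophages at CNS borders, had 52.9, 14.8, 35.3 and 17.7 CPM in the controls (33 UMIs). Cluster 17, led by *Siglech* and *Csf3r* and with *P2ry12* at 787 CPM against 221 CPM, had 7.26, 0, 4.94 and 6.20 CPM (4 UMIs). The control ranges did not overlap. In the cKO, cluster 26 was at 22.5 to 39.7 CPM and cluster 17 at 4.82 to 19.3 CPM, which did not overlap either. As clusters are built from the same nuclei, this is a description without a test.

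*Kcnk2* (chromosome 1, 188940126 to 189134470, minus strand) encodes TREK-1. In fibroblasts, the cells of the ON sheath and meninges, it was at 582, 414, 424 and 330.5 CPM, with a mean of 438 ± 105 CPM (SD, n = 4) from 3225 UMIs. Every fibroblast library lay above every library of all other types, and the log2 difference was 3.75 ± 0.18 (SE, adjusted p = 3.09e-20). A *Kcnk2* UMI was found in 48.1% to 52.1% of fibroblast nuclei and in 1.79% to 3.51% of OL nuclei. OPCs followed at 129, 136, 126 and 74.4 CPM, with a log2 difference of 1.75 ± 0.26 (SE, adjusted p = 6.38e-07). Neurons were at 83.3 ± 17.6 CPM, called higher at 1.12 ± 0.29 (SE, adjusted p = 0.00196) and at 1.15 without replicate 3, and their range overlapped that of OPCs. OLs were lowest of the types tested at 10.7 ± 3.20 CPM and called lower at -2.05 ± 0.41 (SE, adjusted p = 5.27e-05). Astrocytes (-1.15 ± 0.34, SE, adjusted p = 0.00476) and myeloid cells (-1.03 ± 0.39, SE, adjusted p = 0.0331) were called lower as well. The astrocyte call was lost without replicate 4 (-0.92, adjusted p = 0.0732). The myeloid call was lost without replicate 1, 2 or 4 (-1.08, -0.89 and -0.69), with adjusted p = 0.0506, 0.180 and 0.227, and the difference was -1.65 without replicate 3 (adjusted p = 0.00688).

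Empty droplets held 35.4 ± 9.12 CPM of *Kcnk2*, above its means in OLs, astrocytes and myeloid cells. The ratio of *Kcnk2* to *Ranbp3l*, a fibroblast marker, was 0.325 in fibroblasts, 0.385 in OLs, 0.266 in myeloid cells, 0.523 in endothelial cells and 0.643 in astrocytes. In OPCs the ratio was 3.29 and in neurons 3.54. *Ranbp3l* itself ran from 66.8 CPM in cluster 16 to 3486 CPM in cluster 22 among the fibroblast clusters, so the fibroblast ratio is an average over unlike clusters. OL cluster 38 had 137 ± 96.9 CPM of *Kcnk2* in 3 control libraries, against 0 to 17.9 CPM in the other 15 OL clusters, together with 497 CPM of *Ranbp3l*. The part of free or neighbouring fibroblast RNA in these values was not tested further.

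Fibroblasts were not uniform for *Kcnk2*. It was at 988 ± 247 CPM in cluster 24 (led by *Igfbp3* and *Ccn2*), 695 ± 196 CPM in cluster 27 (*Slc7a11*), 605 ± 169 CPM in cluster 22 (*Trpm3*, *Ranbp3l*) and 535 ± 120.3 CPM in cluster 23 (*Lama1*, *Pi16*), each over 4 control libraries. In cluster 34, led by *Prg4* and *Dpp4*, it was at 188, 42.9, 53.0 and 41.3 CPM. In cluster 16, led by *Slc4a10*, *Slc47a1* and *Adamtsl3*, it was at 2.14, 11.2, 33.3 and 11.9 CPM (45 UMIs in 566 nuclei). Cluster 16 was the fibroblast cluster with the highest *Piezo2*, at 1043, 797, 651 and 896 CPM, while the other 5 clusters had *Piezo2* means of 82.4 to 239 CPM. The libraries of cluster 16 lay below all those of the other 5 clusters for *Kcnk2* and above all of them for *Piezo2*. The same held in the cKO, where cluster 16 had 8.96 to 31.3 CPM of *Kcnk2* except that its highest library passed the lowest of cluster 34 (29.0 CPM), and 648 to 932 CPM of *Piezo2*. These values describe clusters of the same nuclei and carry no test.

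*Kcnk10* (chromosome 12, 98395696 to 98544569, minus strand) encodes TREK-2, the close relative of TREK-1. In OPCs it was at 175, 189, 141 and 109.8 CPM (279 UMIs), with a UMI in 38.8% to 52.1% of nuclei. In neurons it was at 80.3, 57.5, 48.0 and 96.2 CPM (109 UMIs), below all OPC libraries. OPCs were called higher by 5.11 ± 0.22 (log2, SE, adjusted p = 6.59e-22) and neurons by 3.65 ± 0.29 (SE, adjusted p = 6.68e-14), or 3.95 without replicate 3. The committed OPCs, usable in 2 control libraries, were at 35.9 and 13.9 CPM from 4 UMIs, and OLs at 0.429, 0.512, 0.156 and 0.899 CPM from 11 UMIs. OLs (-4.08 ± 0.57, SE, adjusted p = 9.89e-08), myeloid cells (-3.26 ± 0.77, SE, adjusted p = 0.00068) and fibroblasts (-2.64 ± 0.52, SE, adjusted p = 6.39e-05) were called lower. Their control means of 0.499 to 1.43 CPM lay below the 2.86 CPM of empty droplets.

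Astrocytes had 6.28 ± 2.32 CPM of *Kcnk10*, and most of it came from cluster 25. That cluster, led by *Gabrb1*, *Ntm* and *Slc1a2*, had 67.5, 34.9, 25.3 and 42.5 CPM, 45 of the 84 control UMIs in 290 nuclei. The means of the other 5 astrocyte clusters were 0.725 to 6.82 CPM. All 4 libraries of cluster 25 lay above every library of those clusters. In the cKO cluster 25 was at 27.1 to 47.3 CPM. No test was made.

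**Figure D2:**
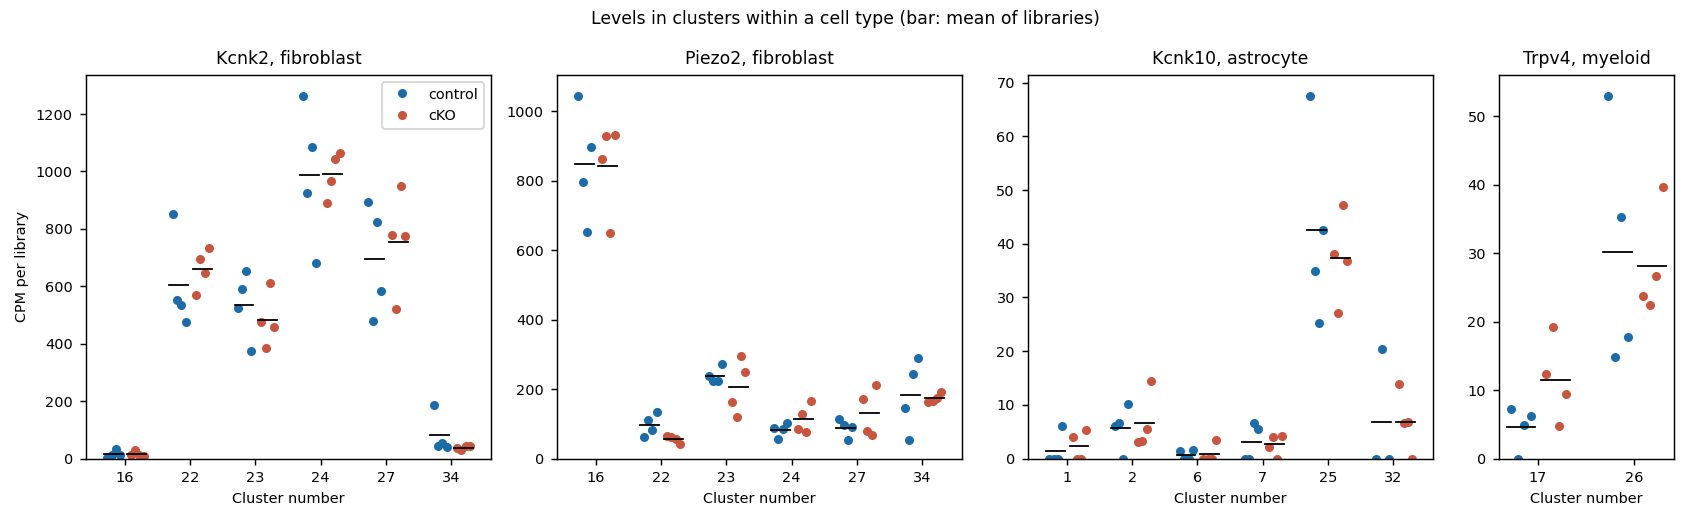
CPM per library in the clusters of fibroblasts (*Kcnk2* and *Piezo2*), astrocytes (*Kcnk10*) and myeloid cells (*Trpv4*); blue points are control and red points cKO libraries, and bars are means. Fibroblast cluster 16 has the lowest *Kcnk2* (mean 14.6 CPM) and the highest *Piezo2* (847 CPM), astrocyte cluster 25 the highest *Kcnk10* (42.5 CPM) and myeloid cluster 26 the higher *Trpv4* (30.2 CPM).

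*Lrrc8a* (chromosome 2, 30126944 to 30153827, plus strand) was at 43.0, 51.2, 53.1 and 62.6 CPM in astrocytes and at 48.8, 44.8, 61.4 and 40.2 CPM in endothelial cells, with overlapping ranges. Astrocytes were called higher at 1.28 ± 0.19 (log2, SE, adjusted p = 2.48e-07), and at 2.07 without replicate 2 (adjusted p = 1.18e-05). Endothelial cells were called higher at 1.09 ± 0.31 (SE, adjusted p = 0.00823), a call lost without replicate 3 (0.93, adjusted p = 0.123) and at 1.87 without replicate 2 (adjusted p = 0.0148). OLs were at 23.0 ± 5.21 CPM and not called, and the sign of the difference changed from 0.16 with TMM to -0.11 with RLE size factors, beside that same shift of all genes. T cells had 1 UMI in 4 libraries, in replicate 2, and without that replicate the fitted difference was -8.65 (adjusted p = 0.0367), a value that depends on the prior count. The astrocyte and endothelial values without replicate 2 are differences from a mean that includes these T cells. They therefore depend on the prior count too and are not a measure of a stronger difference. The main values of 1.28 and 1.09 are likewise differences from a mean that includes T cells, there with 1 UMI. Their size leans on that count as well. The T cell call at -3.06 ± 0.94 (SE, adjusted p = 0.0281) was lost when blocking on the library (-3.05, adjusted p = 0.0605), and without replicate 1, 3 or 4 (-2.69, -2.51 and -2.66), with adjusted p = 0.111, 0.152 and 0.150. Empty droplets held 38.5 CPM, above the mean of all types but astrocytes and endothelial cells, and 11.5% to 18.0% of astrocyte nuclei had a UMI.

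**Figure D3:**
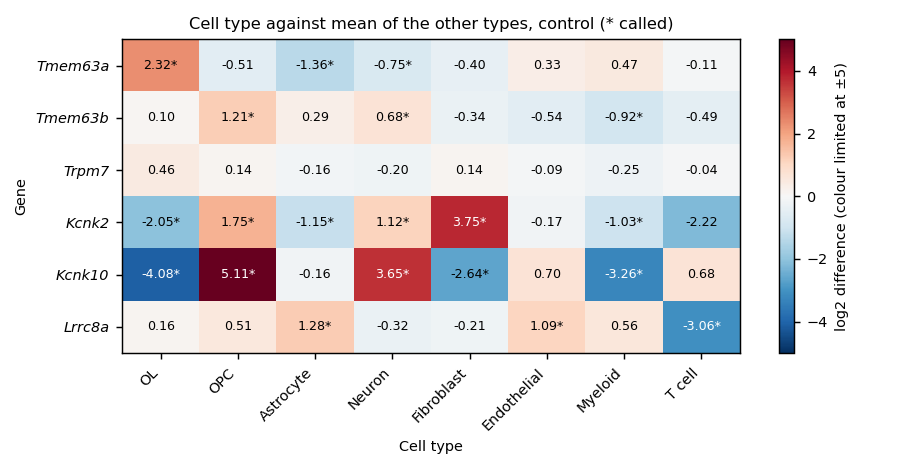
Log2 difference of each cell type from the mean of the other types for 6 genes in the control libraries (*Trpv4* was not tested, and *Tmem63c* had types with no UMI); red is higher, blue is lower and an asterisk marks a call. *Kcnk10* spans 5.11 in OPCs to -4.08 in OLs, whereas no difference of *Trpm7* is called.

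Annotated genes overlapped on the same strand for *Tmem63c* (Gm54482, Gm15745), *Trpm7*, *Kcnk2* (2900042K21Rik, Pdcd5-ps), *Kcnk10* (5330409N07Rik) and *Lrrc8a* (Gm28035), and reads there cannot be told apart between the genes.

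For each member the genes with the most similar profile were sought by Pearson's r of log2(CPM + 1) over the 32 control sums. The sums share libraries, depth and cell types, so r is a description. *Tmem63a* was most like *Rtn4* (r = 0.942), *Tubb4a* (0.936) and the myelin gene *Mag* (0.928). *Kcnk2* was most like *Adra1b* (0.902), *Rbms3* (0.889) and *Itgbl1* (0.884), and *Kcnk10* like *Gpr45* (0.916), *Rab27b* (0.896) and *Cntn1* (0.884). *Tmem63c* was nearest to Gm15810 (0.966), *Zfp804a* (0.959) and *Pla2g4e* (0.959), and *Tmem63b* to *Zfp462* (0.815), *Cers1* (0.790) and *Nlgn1* (0.788). *Lrrc8a* was nearest to *Stt3a* (0.928), *Cuta* (0.925) and *Sumo3* (0.921), while the flat *Trpm7* reached only 0.734 with *Tmem9b*, 0.709 with Gm12353 and 0.708 with *Add1*.

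Of 32 other channel genes linked to mechanosensation, swelling or TRP signalling, 20 were tested across cell types and 19 were called in at least 1 type. *Tmem87a* was the one called in none. In single types, 11.1% (T cells) to 41.5% (OLs) of all genes were called, with the shares by direction given above. How many of all genes were called in at least 1 type was not counted. In OLs, 7 of 20 were higher and 5 lower, against 6 and 6 with RLE size factors and 6 and 10 with DESeq2. The higher ones were the polycystin *Pkd2l1* (43.8 CPM, log2 difference 3.18 ± 0.18, SE), *Trpv3* (28.6 CPM, 2.84 ± 0.23), *Tmem150c*, *Trpc1* and the partner subunits of LRRC8A in VRAC, *Lrrc8b* (194 CPM, 1.87 ± 0.12), *Lrrc8d* (213 CPM, 1.14 ± 0.12) and *Lrrc8c* (0.67 ± 0.13), whose call was lost at 0.40 with RLE size factors and with DESeq2. In astrocytes, where *Lrrc8a* was higher, *Lrrc8b* (-1.03 ± 0.16) and *Lrrc8d* (-0.76 ± 0.14) were lower. *Lrrc8a* itself was not called in OLs and *Lrrc8c* not in astrocytes.

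In OPCs 7 of the 20 were higher and 0 lower, among them the acid-sensing channels *Asic1* (83.2 CPM, 6.09 ± 0.35, SE) and *Asic2* (348 CPM, 4.05 ± 0.22). In neurons 8 were higher and 1 lower, led by *Asic2* (1974 CPM, 6.81 ± 0.18), *Trpc5* (6.33 ± 0.37) and *Trpc6* (5.59 ± 0.56). Fibroblasts had 9 higher and 4 lower, with the magnesium channel *Trpm6* at 115 CPM (4.04 ± 0.23) and both *Pkd1* (1.21 ± 0.12) and *Pkd2* (0.94 ± 0.12) higher. Endothelial cells had 6 higher and 2 lower, with *Lrrc8c* (169.8 CPM, 1.57 ± 0.18) and *Trpm6* (2.06 ± 0.48) among the former. Myeloid cells had 3 higher, *Trpv2* (35.4 CPM, 1.72 ± 0.29), *Trpm4* (0.87 ± 0.34) and *Lrrc8d* (217 CPM, 0.74 ± 0.13), and 3 lower. Astrocytes had 4 higher and 5 lower, and T cells 0 higher and 3 lower. With DESeq2 the lower calls rose to 8 in astrocytes, 7 in myeloid cells and 6 in fibroblasts. The list was written by hand with earlier results of these data known, and nothing is inferred from its counts.

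**Figure D4:**
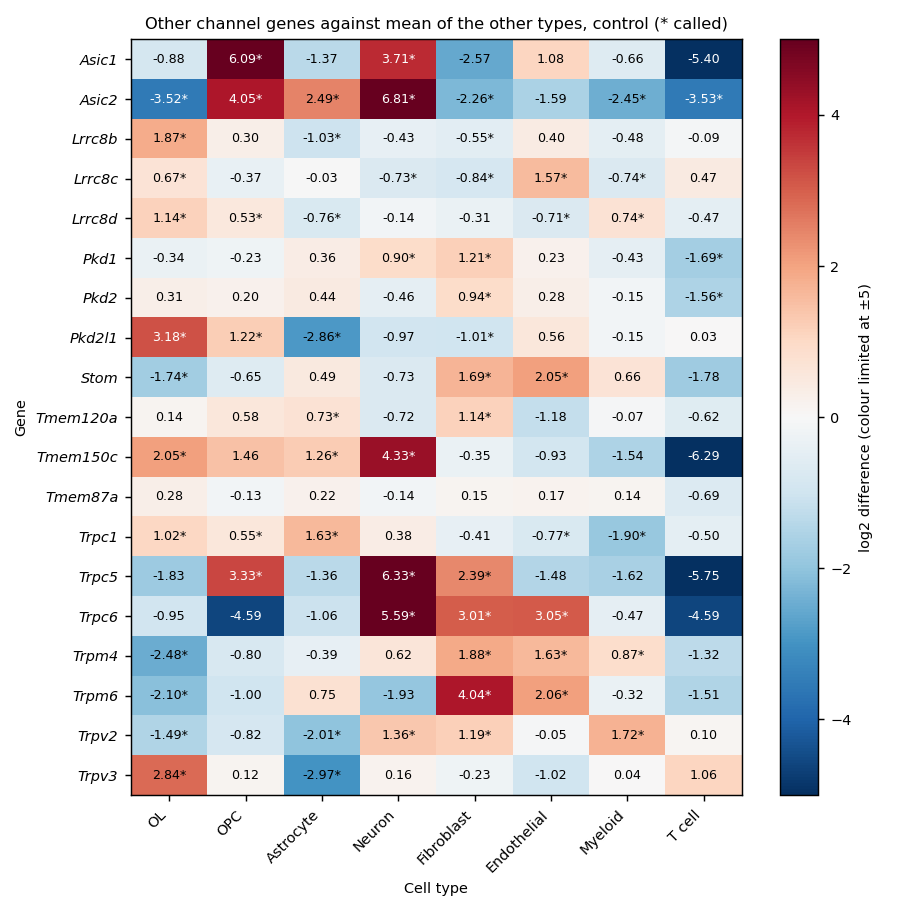
Log2 difference of each cell type from the mean of the other types for 19 of the 20 other channel genes tested in the control libraries; red is higher, blue is lower, colours are limited at ±5 and an asterisk marks a call. *Asic1* in OPCs (6.09), *Asic2* in neurons (6.81) and *Trpm6* in fibroblasts (4.04) stand out.

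Between genotypes, within a cell type, none of the members was called. In 7 types 36 tests of members were made, of which 0 passed with edgeR and 0 with DESeq2, while 2 and 1 had an unadjusted p under 0.05. The smallest adjusted p was 0.542, and the log2 differences (cKO minus control) lay between -0.68 and 0.43. Over all genes, edgeR called 0.0827% in OLs, 0.0854% in OPCs, 0.0159% in neurons and 0% in astrocytes, fibroblasts, endothelial and myeloid cells, while DESeq2 called 0.379% in OLs, 0.171% in OPCs, 0.112% in neurons, 0.07% each in astrocytes and endothelial cells, 0.0307% in fibroblasts and 0% in myeloid cells. Of 87 tests of the other channel genes, 0 were called with either tool, and 2 had an unadjusted p under 0.05 with edgeR.

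In OLs *Tmem63a* was at 303 to 381 CPM in the controls and 314 to 356 CPM in the cKO, a log2 difference of -0.01 ± 0.09 (SE). *Trpm7* was at 233 to 263 and 223 to 279 CPM (-0.07 ± 0.09), *Tmem63b* at 33.9 to 50.6 and 38.4 to 43.1 CPM (-0.02 ± 0.11), *Lrrc8a* at 17.7 to 30.1 and 16.7 to 28.0 CPM (-0.10 ± 0.20) and *Trpv4* at 4.71 to 5.62 and 4.00 to 7.88 CPM (-0.03 ± 0.23). The ranges of these 5 genes overlapped. *Kcnk2* in OLs was at 8.57, 10.2, 15.3 and 8.54 CPM in the controls and at 14.1, 14.3, 15.1 and 14.9 CPM in the cKO. Control replicate 3 was above all cKO libraries and the other 3 controls were below them. How many of all genes show such a pattern was not counted. The log2 difference was 0.43 ± 0.18 (SE, adjusted p = 0.542) and 0.66 without control replicate 3 (adjusted p = 0.267). Empty droplets held 35.4 ± 9.12 CPM of *Kcnk2* in the controls and 38.0 ± 6.85 CPM in the cKO.

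**Figure D5:**
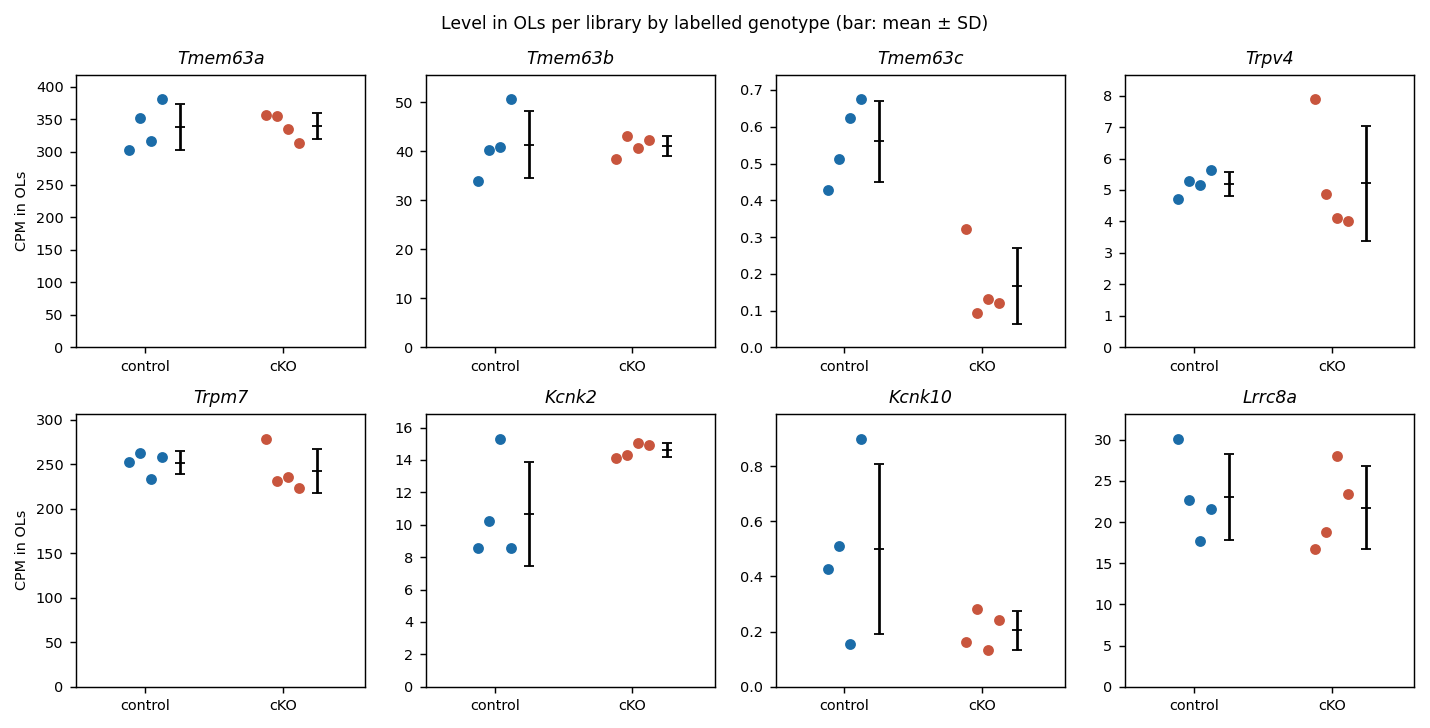
CPM of the 8 genes in OLs by library and labelled genotype; points are libraries, bars are mean ± SD, and each axis starts at 0. *Tmem63c*, on 13 and 5 UMIs, does not overlap between groups, like 4.1% of genes with a UMI in OLs. *Kcnk2* has 3 of 4 control libraries below all cKO libraries and the other above them, a pattern that was not counted over all genes.

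Control and cKO libraries did not overlap in 3 of the 36 member tests, beside 2772 of the 68603 tests of all genes in these 7 types. *Kcnk2* in fibroblasts was at 330.5 to 582 CPM in the controls and 407 to 509 CPM in the cKO (0.01 ± 0.16, log2, SE). *Kcnk10* in OPCs was at 109.8 to 189 and 111 to 166 CPM (-0.12 ± 0.19) and *Tmem63b* in OPCs at 63.1 to 101 and 89.5 to 114 CPM (0.18 ± 0.19). *Kcnk2* in OPCs was at 129, 136, 126 and 74.4 CPM in the controls and at 139, 136, 159 and 152 CPM in the cKO, a difference of 0.33 ± 0.19 (SE, adjusted p = 0.773). The groups did not overlap, by less than 1 CPM between the nearest libraries, and 3.71% of genes tested in OPCs had groups without overlap. *Tmem63c* in neurons was at 30.8 to 48.9 and 23.2 to 41.0 CPM (-0.09 ± 0.31), and *Lrrc8a* in astrocytes at 43.0 to 62.6 and 43.8 to 58.7 CPM (-0.09 ± 0.14). *Lrrc8a* had groups without overlap in myeloid cells and in fibroblasts, as had 2.99% and 2.8% of genes tested there. In myeloid cells it was at 42.2, 36.8, 35.1 and 39.3 CPM in the controls and at 31.6, 25.2, 27.7 and 13.4 CPM in the cKO (-0.68 ± 0.29, SE, adjusted p = 1.00). In fibroblasts it was at 19.3 to 24.1 and 25.5 to 31.5 CPM (0.32 ± 0.16, SE, adjusted p = 0.999). Neither passed, and the difference between those types was not tested.

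The share of nuclei with a UMI was compared between genotypes in 15 pairs of gene and type, with nuclei thinned to 1000 UMIs (exact permutation test, two-sided, 4 against 4 libraries, smallest possible p = 0.0286). One pair reached that p. It was *Tmem63c* in OLs, at 0.0781% ± 0.0185 in the controls and 0.0194% ± 0.0230 in the cKO (SD, n = 4 each, exact permutation p = 0.0286), or 0.175% and 0.0482% unthinned. The thinned shares rest on 6 control and 2 cKO nuclei with a UMI, and the unthinned ones on 13 and 5 UMIs. That p is reached whenever the libraries of both groups do not overlap. In CPM, 4.1% of genes with a UMI in OLs had groups without overlap, and shares of other genes were not tested. The OL means of *Tmem63c* were 0.560 CPM (control) and 0.167 CPM (cKO), beside 0.306 and 0.363 CPM in empty droplets. For *Tmem63a* in OLs the thinned shares were 29.2% ± 3.43 and 28.2% ± 2.22 (exact permutation p = 0.571, n = 4 each), and 58.6% and 58.1% unthinned.

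Over all named nuclei of a library, 8 members were tested and 0 were called with edgeR or with DESeq2, where edgeR called 0% and DESeq2 0.163% of 18457 genes. *Kcnk10* alone had an unadjusted p under 0.05, with both tools, at -0.44 ± 0.16 (log2, SE, adjusted p = 0.728). In such sums fewer nuclei of a type and less RNA per nucleus cannot be told apart. The difference of the genotype effect between OLs and astrocytes was tested for 7 members. With edgeR 0 were called and 0 had an unadjusted p under 0.05. DESeq2 called 0 of the 5 members to which it gave an adjusted p, and edgeR called 0.0188% of all genes. For *Kcnk2* that difference was 0.15 ± 0.35 (SE, adjusted p = 1.00). A fit with the library as a block, chosen after seeing the data, called 0 of the 7 members and 0.0752% of all genes and gave 0.24 ± 0.22 for *Kcnk2* (SE, adjusted p = 0.973).

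Within control OLs, nuclei with a *Piezo2* UMI (Piezo2+, 4379 nuclei) were compared with those without (Piezo2-, 3612 nuclei). Piezo2+ nuclei held more UMIs on average in every control library, so the split also follows depth. Of 12411 genes 0.572% were called, and of the 6 members tested 0 were called with edgeR or DESeq2, with 1 at an unadjusted p under 0.05 in each. That was *Kcnk2*, at 12.5 ± 3.63 CPM in Piezo2+ and 7.70 ± 3.34 CPM in Piezo2- OLs (SD, n = 4 each), higher in 4 of 4 libraries, with a log2 difference of 0.72 ± 0.31 (SE, adjusted p = 0.544). Blocking on the library gave 0.77 ± 0.21 and a call (adjusted p = 0.00345), and it called 3.04% of all genes. With the block and nuclei thinned to 1000 UMIs, an alternative chosen after seeing the data, it was 0.61 ± 0.33 and not called (adjusted p = 0.338), where 2.36% of genes were. Thinned without the block, the *Kcnk2* difference was 0.56 ± 0.43 and not called (edgeR, adjusted p = 0.857). Empty droplets of the controls held 35.4 CPM of *Kcnk2*, above its level in both groups of OLs. *Tmem63a* was at 345 ± 34.0 and 324 ± 36.6 CPM (0.11 ± 0.11, higher in 3 of 4 libraries), *Trpm7* at 255 ± 13.2 and 245 ± 12.7 CPM (0.07 ± 0.09, higher in 4 of 4 libraries) and *Trpv4* at 5.75 ± 0.743 and 4.40 ± 1.48 CPM (0.47 ± 0.28, or 0.20 without replicate 3, higher in 3 of 4 libraries). For *Tmem63a* the alternatives gave differences of 0.08 to 0.22, under the threshold of 0.5. Their smallest adjusted p was 0.0162, in an edgeR fit with the library as a block. *Tmem63b* (-0.07 ± 0.15) and *Lrrc8a* (-0.13 ± 0.24) were higher in Piezo2+ OLs in 1 of 4 libraries each. *Tmem63c* and *Kcnk10*, with 13 and 11 UMIs in these OLs, were not tested.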

How the data were processed

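The authors isolated nuclei from ONs with Dounce homogenizers, made libraries with a 3' droplet kit and, per the labels, counted UMIs with Cell Ranger 7.0.0 on GRCm39. Whether intronic reads were counted is not given in the sources used here. The deposited values are raw counts per gene and barcode, before removal of ambient RNA or doublets. Of 33696 features, 98.5% were matched by identifier to GENCODE vM39, which gave coordinates.

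Nuclei were called by the OrdMag threshold (99th percentile of 8000 expected nuclei, divided by 10) or, from 500 UMIs, by a profile unlike empty droplets (ranks 45000 to 90000, 10000 simulations, false discovery rate 0.01). Nuclei under 200 genes or over 5% mitochondrial counts, or beyond 5 median absolute deviations (3 for mitochondrial share), were removed. Doublets were scored with Scrublet and 2.81% to 5.25% of nuclei per library removed. Leiden clustering (scanpy 1.11.5, leidenalg 0.10.2, Python 3.11.15) used 3000 variable genes without the members, the other channels and the Piezo genes, 30 components, 15 neighbours and resolution 3. Of 47 clusters, 36 were named from marker lists and 11 (2926 nuclei) stayed unnamed and entered no sum. The naming rules and the exemption of OPC lineage clusters from the rule on mixtures were set after the clusters were seen.

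Sums of at least 10 nuclei and 1000 counts were tested with edgeR 4.0.16 in R 4.3.3 (glmQLFit, glmQLFTest, TMM, filterByExpr), with Benjamini-Hochberg adjustment over all genes of a comparison; DESeq2 1.42.0 was the alternative. SEs come from the F statistic. The scripts were tested on simulated data. Shares were compared with exact permutation tests (scipy 1.17.1). Alternatives were RLE size factors, no low-count filter, each library left out, the library as a block, ambient subtraction, thinning to 1000 UMIs, OrdMag nuclei only and resolution 1.5. Sums of the same library come from the same mice, so the library pairs them. Deviations from the group means (genes over 10 CPM) correlated at r = 0.505 to 0.693 between Piezo2+ and Piezo2- OLs, and between cell types at a median r of 0.105, over 0.1 in 54.5% of pairs.

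The named genes are the 8 members, a list of 32 other channels (1 of which is counted but not reported here), the 3 genes most like each member and *Piezo2* in OLs. Members and lists were chosen with earlier results of these data known. Each library pools 3 mice, so p-values between genotypes measure the spread between pools. The main fits across cell types, by *Piezo2* status and between OLs and astrocytes take sums of the same library as independent. Their p-values do not measure that spread alone.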

Additional observations from a re-analysis of the deposited data

Results flagged for a closer look

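In 92 groups of 4 libraries with at least 20 UMIs of a gene, 4 had a library far from the others by Dixon's criterion, which flags about 1 in 20 groups by chance. *Kcnk2* in OPCs was at 74.4 CPM in control replicate 4, below the 126 to 136 CPM of the others. *Tmem63b* in fibroblasts was at 51.9 CPM in control replicate 4, above 32.3 to 34.2 CPM. *Trpm7* in neurons was at 243 CPM in cKO replicate 10, above 179.9 to 189.8 CPM. *Trpv4* in astrocytes was at 2.78 CPM in control replicate 4, above 1.28 to 1.36 CPM. In 3 of these groups the library was control replicate 4, whose estimated share of ambient RNA was 29.9% in OPCs, 22.6% in fibroblasts and 16.6% in astrocytes, the highest of the 4 control libraries in each. Its part in these values was not tested.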

How the results depend on the processing

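Of 22 calls of members across cell types, 13 kept their direction and their call under every alternative that gave them a value: *Tmem63a* in OLs and astrocytes, *Kcnk2* in fibroblasts, OPCs and OLs, *Kcnk10* in OPCs, neurons, OLs and fibroblasts, *Tmem63b* in OPCs, *Tmem63c* in neurons and OPCs, and *Lrrc8a* in astrocytes. OPCs were not named at resolution 1.5 and gave no value there, and *Tmem63c* and *Lrrc8a* were not tested after thinning. After thinning to 1000 UMIs, 7 calls were higher and 5 lower instead of 12 and 10, with 40 tests instead of 56, and among the tested ones *Kcnk10* (-2.56, adjusted p = 0.0692) and *Tmem63b* (-0.85, adjusted p = 0.115) in myeloid cells, *Kcnk2* (0.80, adjusted p = 0.281), *Tmem63b* (1.16, adjusted p = 0.0581) and *Tmem63a* (-0.51, adjusted p = 0.386) in neurons and *Kcnk2* in astrocytes (-0.92, adjusted p = 0.0739) were lost. Leaving out 1 control library gave 10 to 15 calls higher and 8 to 10 lower. Calls were gained as well as lost, and over all alternatives they ran from 7 to 15 higher and from 5 to 12 lower. Some alternatives tested 8 members or took in committed OPCs. With OrdMag nuclei only, the endothelial call of *Lrrc8a* was lost (0.61, adjusted p = 0.126), as was the T cell call with RLE size factors (-2.79, adjusted p = 0.0763) and DESeq2 (-2.48, adjusted p = 0.127). With the replicate block, 1 member instead of 0 was called in Piezo2+ OLs (*Kcnk2*, 0.77) while calls over all genes rose from 71 (0.572%) to 377 (3.04%), and the block changed no other call than those given above for *Tmem63a* and *Lrrc8a*. In the difference of the genotype effect between OLs and astrocytes, the library as the replicate block, chosen after seeing the data, left 0 members called (*Kcnk2*, 0.24), with 12 genes called in all instead of 3. No paired analysis was possible between genotypes within a cell type because the groups share no replicate numbers.

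No member was called between genotypes under any alternative. Differences near 0 changed sign. In OLs, *Tmem63a* became 0.00375 without the filter and 0.00622 with ambient subtraction, *Tmem63b* 0.0102 after thinning, and *Trpv4* 0.0027 with OrdMag nuclei. After thinning, *Kcnk2* in fibroblasts became -0.0519, *Kcnk10* in OPCs 0.0395 and *Lrrc8a* in astrocytes 0.0125. Leaving out 1 library gave ranges of -0.0464 to 0.0503 for *Tmem63a*, -0.0930 to 0.0848 for *Tmem63b*, -0.27 to 0.0719 for *Trpv4* and -0.26 to 0.0786 for *Lrrc8a* in OLs, -0.10 to 0.19 for *Kcnk2* in fibroblasts, -0.21 to 0.0768 for *Tmem63c* in neurons, and -0.00372 to 0.38 for the difference of the *Kcnk2* effect between OLs and astrocytes. Unthinned shares differed by -0.863 percentage points for *Tmem63b* and -0.0992 for *Kcnk10* in OLs, -3.88 for *Kcnk10* in OPCs, -0.149 for *Lrrc8a* in astrocytes and 0.166 for *Trpv4* in myeloid cells, each with the sign turned. The causes were not tested. Depth limits *Tmem63c*, *Trpv4* and all values in T cells, committed OPCs and mural cells, and intervals and floors cover counting error only.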
